A study of Mus musculus with 2 samples.

Results

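The enzymes that turn cholesterol into bile acids, the bile acid receptor FXR and its target SHP were followed in mouse liver sections with wild-type AEG-1 (AEG-1-WT) or its C75S mutant (AEG-1-C75S). The 8 genes, of 19465 in the deposited tables, were taken by their symbols: Cyp7a1, Cyp8b1, Cyp27a1, Cyp7b1, Hsd3b7 and Baat for the enzymes, Nr1h4 for FXR and Nr0b2 for SHP. AEG-1 is the product of Mtdh. AEG-1-C75S mice carry a knock-in made with CRISPR/Cas9 in which Cys75 of AEG-1, a residue that is palmitoylated in the wild-type protein, is a serine in every cell. Livers of untreated 8-week-old females, littermates from matings of heterozygotes, gave 1 section of 1 AEG-1-WT mouse and 1 section of 1 AEG-1-C75S mouse, both from the same lobe. They are called WT and C75S from here on. RNA was counted on an array of Visium spots as unique molecular identifiers (UMIs) of ligated probe pairs.

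In the classical route of bile acid synthesis, CYP7A1 catalyses the first and rate-limiting step, the 7α-hydroxylation of cholesterol, and CYP8B1, a sterol 12α-hydroxylase, sets how much cholic acid is made. The alternative route starts with the mitochondrial sterol 27-hydroxylase CYP27A1 and goes on with the oxysterol 7α-hydroxylase CYP7B1. Both routes need HSD3B7, a 3β-hydroxysteroid dehydrogenase, and end with BAAT, which joins bile acids to taurine or glycine. Bile acids activate FXR, which induces SHP, and SHP represses the transcription of Cyp7a1 and Cyp8b1. In the liver lobule the classical route is known to lie in hepatocytes around the central vein.

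A spot covers several cells, so its counts are sums over hepatocytes and other cells, and fewer cells of a type and less RNA per cell cannot be told apart. Spots with at most 50000 UMIs were kept, 2309 in WT and 2163 in C75S, with 42246988 and 41674347 UMIs, of which 65754 and 64066 came from the 8 genes. The median depth was 16830 UMIs per spot in WT and 18808 in C75S. The label of the tissue fitted its markers: Alb, the albumin gene, gave at least 4.01% of the UMIs of every spot in WT and at least 4.78% in C75S, so no spot was free of hepatocyte RNA. The sections shared 1896 barcodes, which are positions on the array and not cells. Levels are given as UMIs scaled to a total of 1000000 UMIs of the same spots (CPM), and a level is compared only for 1 gene across spots or sections, because the number and efficiency of probes differ between genes. All intervals are 95% intervals of counting error alone, Poisson for levels and binomial for ratios and shares. Where 2 ratios are compared, the interval is a normal (Wald) approximation. With 1 animal per genotype no test between genotypes could be made. Each ratio compares those 2 libraries and not the conditions.

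Of the 8 genes, Cyp7a1 was lower in C75S and Nr0b2 and Cyp8b1 were higher, each by at least 0.5 on the log2 scale, while the other 5 differed by less. The same size of difference, over at least 100 UMIs in the sections together, was met by 967 of 11253 genes (8.59%), of which 652 were lower (5.79%) and 315 higher (2.8%) in C75S. The median log2 ratio was 0.01 over the 8 genes and -0.05 over all genes tested. The 3 differences ran in opposite directions, and the middle of the group lay near that of all genes.

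**Figure D1:**
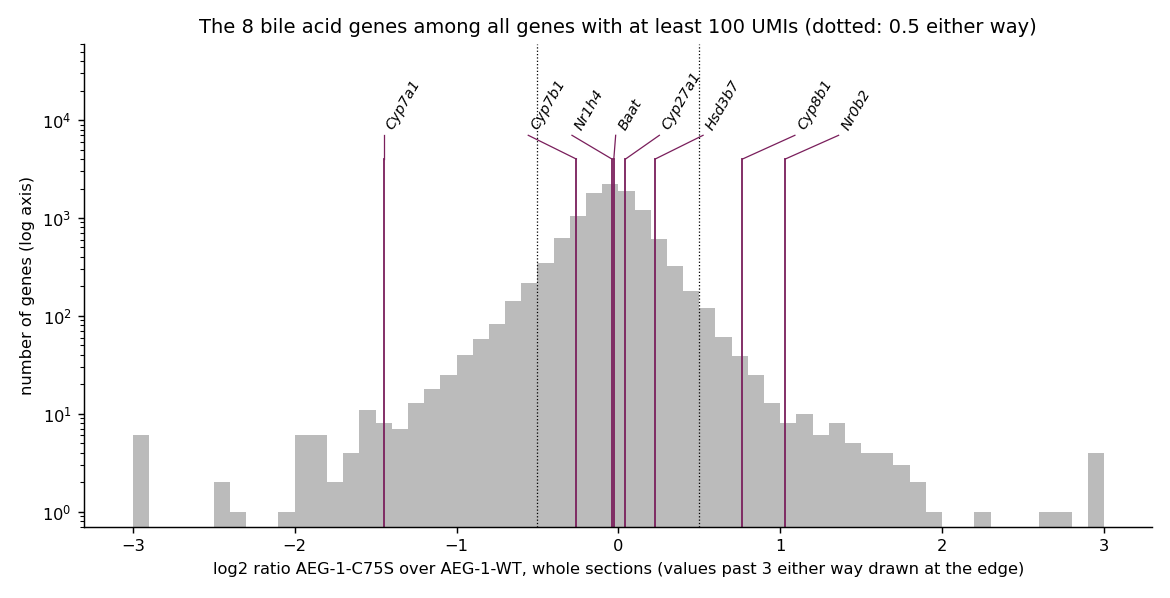
The horizontal axis is the log2 ratio of C75S over WT in whole sections, the grey bars count all 11253 genes with at least 100 UMIs on a log axis, and the purple lines mark the 8 bile acid genes. Cyp7a1 lies at -1.45 and Nr0b2 at 1.03, both outside the dotted lines at 0.5 either way, and 5 of the 8 lie between these lines.

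Cyp7a1, on chromosome 4 at chr4:6265612-6275633 of GRCm38 (minus strand, 6 exons), had 7796 UMIs in WT, or 184.5 CPM (180.5 to 188.7). In C75S it had 2815 UMIs, or 67.5 CPM (65.1 to 70.1). The intervals lay far apart, and the level was 2.73-fold lower in C75S, a log2 ratio of -1.45 (-1.51 to -1.39). Only 44 of the 11253 genes had a lower ratio. The ratio was -1.46 among spots matched on their total UMIs, so it was as large at equal depth.

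Cyp8b1 (chr9:121914356-121916305, minus strand, 1 exon), the 12α-hydroxylase of the classical route, went the other way on few counts. It had 180 UMIs in WT (4.26 CPM, 3.66 to 4.93) and 302 in C75S (7.25 CPM, 6.45 to 8.11). At least 1 UMI was found in only 7.4% of spots in WT and 12.8% in C75S. The log2 ratio was 0.77 (0.50 to 1.04), and 0.69 (0.01 to 1.40) once every spot was thinned to 3000 UMIs. On these few counts, the 2 target genes of SHP named above differed in opposite directions between these sections. Set against each other, Cyp7a1 had 4331 UMIs per 100 of Cyp8b1 in WT and 932 in C75S.

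The enzymes of the alternative route differed little. Cyp27a1 (chr1:74713574-74737892, plus strand, 9 exons) had 23668 UMIs in WT and 24067 in C75S, or 560 and 578 CPM, with a log2 ratio of 0.04 (0.02 to 0.07). Cyp7b1 (chr3:18071950-18243338, minus strand, 6 exons) had 1667 and 1374 UMIs, or 39.5 and 33.0 CPM, with a log2 ratio of -0.26 (-0.36 to -0.16). That of Cyp7b1 was -0.07 (-0.33 to 0.18) once every spot was thinned to 3000 UMIs, an interval that includes 0. Among spots matched on their total UMIs it was -0.27.

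Of the enzymes shared by both routes, Hsd3b7 (chr7:127800604-127803802, plus strand, 7 exons) was somewhat higher in C75S, with 12637 UMIs in WT and 14589 in C75S (299 and 350 CPM). Its log2 ratio was 0.23 (0.19 to 0.26). Baat (chr4:49489422-49506557, minus strand) had 12432 and 12027 UMIs (294 and 289 CPM) and a log2 ratio of -0.03 (-0.06 to 0.01). The interval of Baat included 0.

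Nr0b2 (chr4:133553376-133556536, plus strand, 2 exons), which encodes the repressor SHP, had 1718 UMIs in WT, or 40.7 CPM (38.8 to 42.6). It had 3462 UMIs in C75S, or 83.1 CPM (80.3 to 85.9). The level was 2.04-fold higher in C75S, a log2 ratio of 1.03 (0.95 to 1.11), and 54 genes had a higher ratio. Nr1h4 (chr10:89454234-89533585, minus strand, 9 exons), the gene of the receptor FXR, had 5656 UMIs in WT and 5430 in C75S, or 134 and 130 CPM, with a log2 ratio of -0.04 (-0.09 to 0.01). Per 100 UMIs of the receptor, the sections held 30.4 (28.8 to 32.1) and 63.8 (61.1 to 66.5) UMIs of Nr0b2. The interval of the receptor gene reached no further than 0.09 from 0 on the log2 scale, while that of its target began at 0.95.

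The 2 genes higher in C75S by at least 0.5, Nr0b2 and Cyp8b1, had RefSeq promoters in the table at hand (GRCm38.p6), as did Cyp27a1, Hsd3b7 and Nr1h4. The 250 bases before the transcription starts of Nr0b2 and Cyp8b1 are shown 5′ to 3′ on the strand of the gene. They were picked because both hold the monomer site of LRH-1, a nuclear receptor through which SHP acts on bile acid genes. Capitals mark matches to the motifs searched.
Nr0b2, chr4:133553126-133553375, plus strand: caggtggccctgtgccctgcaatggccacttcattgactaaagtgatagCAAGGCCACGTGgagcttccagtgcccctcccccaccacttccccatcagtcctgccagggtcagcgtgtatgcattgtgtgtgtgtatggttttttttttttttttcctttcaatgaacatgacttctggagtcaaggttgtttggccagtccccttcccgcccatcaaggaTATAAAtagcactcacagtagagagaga
Cyp8b1, chr9:121916306-121916555, minus strand: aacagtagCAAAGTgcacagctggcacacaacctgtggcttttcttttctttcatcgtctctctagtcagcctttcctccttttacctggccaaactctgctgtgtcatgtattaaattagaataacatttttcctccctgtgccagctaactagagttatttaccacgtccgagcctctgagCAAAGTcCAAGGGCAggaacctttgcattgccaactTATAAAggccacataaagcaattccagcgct
The motifs searched on both strands were the LRH-1 monomer site CAAGGNCA, the nuclear receptor hexamer AGGTCA, the E-box CACGTG, the D-box TTATGNAA, the HNF4A core CAAAGT and the TATA box TATAAA. In Nr0b2 the LRH-1 site ran from -201 to -194 before the start and overlapped an E-box at -195 to -190, with a TATA box at -28 to -23. In Cyp8b1 the LRH-1 site lay at -60 to -53, next to an HNF4A core at -67 to -62, with a further HNF4A core at -242 to -237 and a TATA box at -31 to -26. Of the other 3 promoters, that of Cyp27a1 held a D-box at -60 to -53. That of Hsd3b7, itself somewhat higher in C75S, held none of the 6 motifs. The Nr1h4 promoter held the hexamer at -214 to -209 on the opposite strand. It lies at chr10:89506659-89506908, inside the span given above for Nr1h4, so it belongs to a start within the gene. Among 32851 promoters, taken with 50 more bases after the start, the LRH-1 site was found in 6.71%, the hexamer in 16.3%, the E-box in 7.15%, the D-box in 3.38%, the HNF4A core in 14.4% and the TATA box in 13.6%. No promoter was at hand for Cyp7a1, Cyp7b1 and Baat, so the gene lower in C75S was not searched for the LRH-1 site. A match describes the letters and is not a measured site of binding.

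To follow the 8 genes across the lobule, the spots of each section were ordered by the ratio of Cyp2f2, a periportal cytochrome, to Cyp2e1, a pericentral cytochrome, with 1 UMI added to each, and divided into 5 groups of equal spot number, the quintiles, from 1 (central) to 5 (portal). Each quintile held 461 or 462 spots in WT and 432 or 433 in C75S. The median ratio over all spots was 0.178 in WT and 0.227 in C75S, so the quintiles are ranks within a section and not equal positions.

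Cyp7a1 was highest near the central vein in both sections. Its level from quintile 1 to quintile 5 was 272, 241, 203, 128 and 75.7 CPM in WT, and no neighbouring intervals overlapped. In C75S it was 101, 88.6, 71.6, 46.9 and 29.6 CPM, with overlap only between quintiles 1 and 2. The portal level was lower than the central level by a log2 ratio of -1.85 (-1.98 to -1.71) in WT and of -1.77 (-1.98 to -1.56) in C75S, and these slopes differed by 0.08 (-0.16 to 0.33). Of all genes, 0.325% in WT and 0.337% in C75S had a steeper slope toward the central vein. Quintiles 1 and 2 held 54.8% (53.7 to 55.9) of the Cyp7a1 UMIs in WT and 56.4% (54.6 to 58.3) in C75S, against 39.5% and 40.3% of all UMIs.

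**Figure D2:**
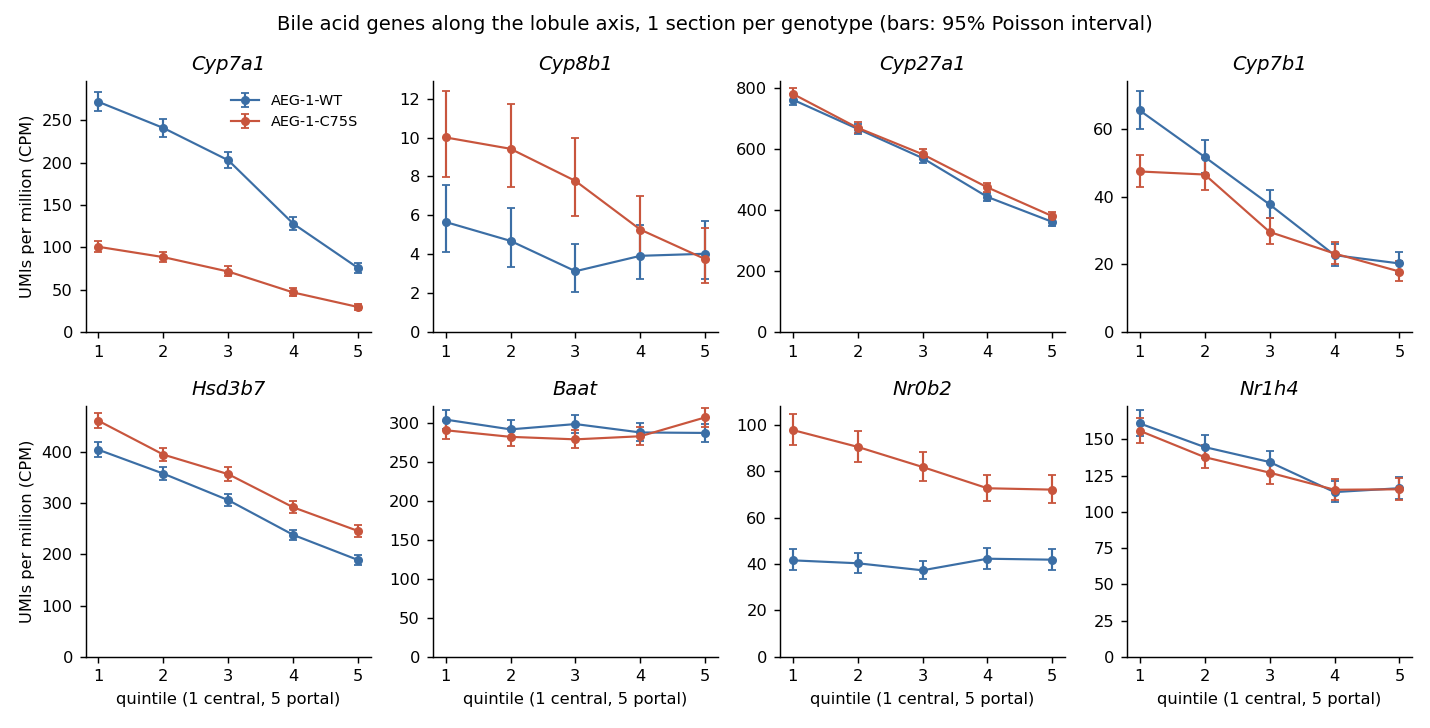
Each panel plots the level of 1 gene in CPM against the quintile of the lobule axis, from 1 (central) to 5 (portal), for WT in blue and C75S in red, with 95% Poisson intervals as bars. Cyp7a1 falls from 272 to 75.7 CPM in WT and from 101 to 29.6 CPM in C75S, Nr0b2 stays between 37.3 and 42.3 CPM in WT, and Baat is nearly level in both.

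A difference of at least 0.5 on the log2 scale between quintiles 1 and 5 was met by 4 of the 8 genes in WT and by 5 in C75S. Of all genes with at least 100 UMIs over these 2 quintiles, 10.9% of 8607 met it in WT and 9.49% of 8600 in C75S. Those of the 8 genes that met it were all higher in quintile 1. Besides Cyp7a1 these were Cyp27a1, with slopes of -1.08 in WT and -1.04 in C75S, Cyp7b1, with -1.69 and -1.41, and Hsd3b7, with -1.10 and -0.91. The slope of Cyp8b1 was -0.49 (-1.19 to 0.20) in WT and -1.42 (-2.07 to -0.80) in C75S. It rested on 45 and 32 UMIs in the outer quintiles of WT, short of the 100 asked of all genes. In deciles of the axis it was -1.08 in WT.

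Cyp27a1 went from 761 CPM in quintile 1 to 361 in quintile 5 in WT and from 780 to 380 in C75S, so the first enzyme of the alternative route was also higher in central spots. Hsd3b7 went from 404 to 189 CPM in WT and from 461 to 246 in C75S. It was higher in C75S in every quintile, and its slopes differed by 0.19 (0.07 to 0.31). Baat, the enzyme of the last step, lay between 288 and 305 CPM in WT and between 279 and 308 CPM in C75S. Its slopes of -0.08 and 0.08 differed by 0.16 (0.05 to 0.28).

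The receptor gene Nr1h4 was moderately higher in central spots, with 161 CPM in quintile 1 and 116 in quintile 5 of WT and 156 and 116 CPM in C75S. Its slopes were -0.47 (-0.59 to -0.35) and -0.43 (-0.56 to -0.31). Nr0b2 was flat in WT at 41.6, 40.4, 37.3, 42.3 and 41.9 CPM from quintile 1 to quintile 5. In C75S it was 97.9, 90.6, 82.0, 72.8 and 72.2 CPM, above every WT value. The slopes of 0.01 (-0.21 to 0.23) and -0.44 (-0.60 to -0.28) differed by -0.45 (-0.72 to -0.18). Thinned to 3000 UMIs per spot, the slopes were -0.30 (-0.90 to 0.28) and -0.18 (-0.59 to 0.23). Their order turned round, and a difference in slope was not detectable at that depth. Without thinning the order held, with 0.08 and -0.40 at equal weight per spot and 0.15 and -0.60 in deciles.

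The ratio between the sections was nearly the same in all quintiles for Cyp7a1. It was -1.43, -1.44, -1.50, -1.45 and -1.35 from quintile 1 to quintile 5, and the 5 intervals overlapped. When the quintiles were drawn over the spots of both sections together, it was -1.40 in quintile 1 and -1.32 in quintile 5. For Nr0b2 the ratio was 1.23, 1.17, 1.13, 0.78 and 0.78. After thinning it was 1.03 (0.56 to 1.52) in quintile 1 and 1.16 (0.63 to 1.70) in quintile 5, so the order turned round. Both of these intervals included the value without thinning. Cyp8b1 was higher in C75S in quintiles 1 to 3, with ratios of 0.82, 1.01 and 1.31, while in quintiles 4 and 5 the values of 0.43 (-0.24 to 1.11) and -0.10 (-0.87 to 0.66) had intervals that included 0. Its ratio at the central end was 0.27 (-0.47 to 1.01) in deciles and 0.51 (-0.86 to 1.94) after thinning. On an axis of Hal, Gls2 and Hsd17b13 over Cyp1a2 and Oat, Cyp8b1 had 0.97 (0.44 to 1.51) in quintile 1. In quintile 5 of that axis it had 0.64 (-0.14 to 1.45), so a difference limited to central spots was not established. Cyp7b1 had its lowest ratio, -0.46 (-0.66 to -0.27), in quintile 1, where it was -0.17 (-0.63 to 0.29) after thinning.

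**Figure D3:**
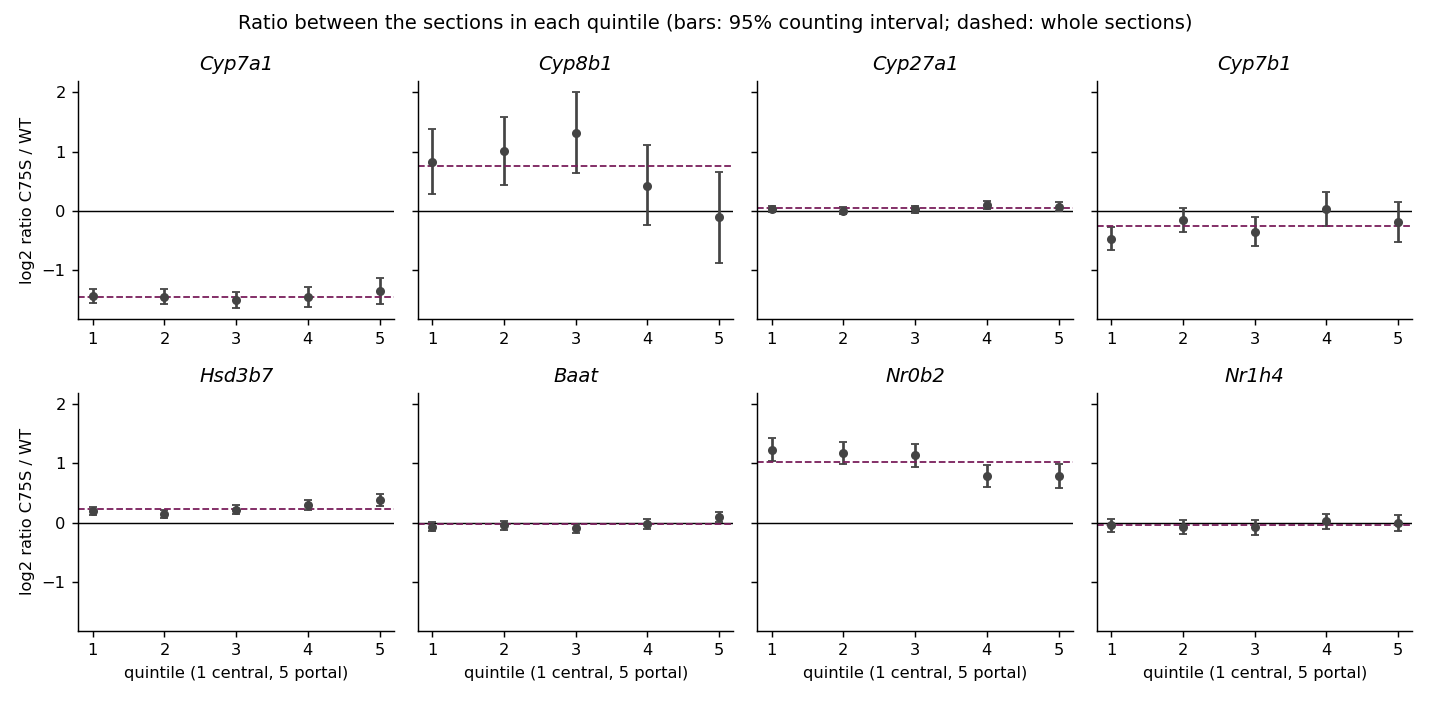
Each panel plots the log2 ratio of C75S over WT of 1 gene in each quintile of the lobule axis, with 95% counting intervals as bars and the ratio over whole sections as a dashed line. Cyp7a1 stays between -1.50 and -1.35 in all quintiles, Nr0b2 lies above 0 in all of them, and Cyp27a1, Baat and Nr1h4 lie close to 0.

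Cyp7a1 was also lower in C75S when set against the other 5 enzymes, a ratio that needs no library total. There were 15.4 UMIs of Cyp7a1 per 100 UMIs of the other 5 enzymes together in WT (15.0 to 15.8) and 5.38 in C75S (5.17 to 5.58), a log2 ratio of -1.52 (-1.58 to -1.45). Against each enzyme alone the log2 ratio was -2.22 for Cyp8b1, -1.49 for Cyp27a1, -1.19 for Cyp7b1, -1.68 for Hsd3b7 and -1.42 for Baat. Each of these is the difference between 2 whole-section ratios given above, so the same direction against all 5 is no separate finding.

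Along the axis, Cyp7a1 per 100 UMIs of the other 5 enzymes was 17.6, 17.6, 16.7, 12.9 and 8.78 in WT and 6.34, 6.32, 5.70, 4.35 and 3.11 in C75S, from quintile 1 to quintile 5. The ratio in quintiles 4 and 5 lay below that in quintile 1 beyond both intervals, while the intervals of quintiles 1 to 3 overlapped. The same held against Cyp27a1, with 35.7 and 21.0 UMIs of Cyp7a1 per 100 in quintiles 1 and 5 of WT, and against Hsd3b7, with 67.3 and 40.1. Against Cyp7b1, the other 7α-hydroxylase, the ratio in WT was 416 (378 to 458) per 100 in quintile 1 and 373 (313 to 447) in quintile 5, with overlapping intervals, after a highest value of 563 (484 to 659) in quintile 4. In C75S it lay between 166 and 242 throughout. Against Baat, whose own slopes were small, the ratio went from 89.3 to 26.3 in WT and from 34.6 to 9.64 in C75S.

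**Figure D4:**
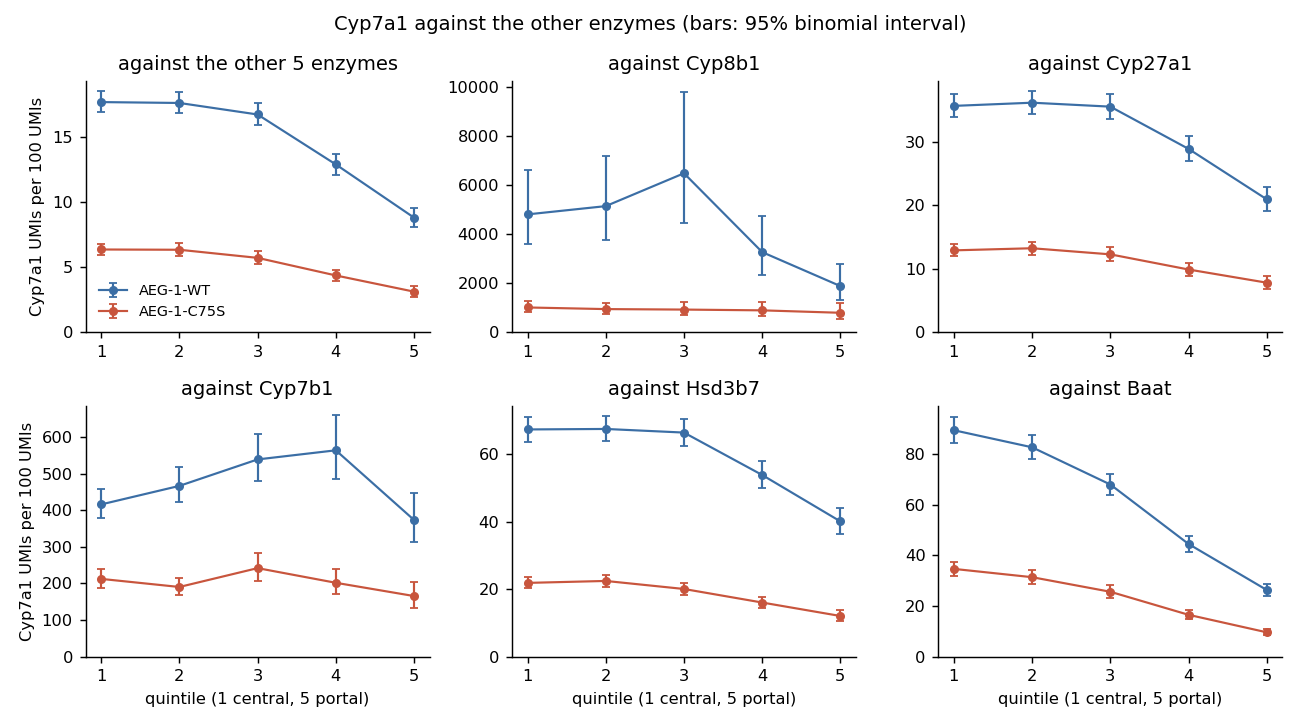
Each panel plots UMIs of Cyp7a1 per 100 UMIs of the named enzyme, or of the other 5 together, against the quintile of the lobule axis, for WT in blue and C75S in red, with 95% binomial intervals. C75S lies below WT in every quintile of every panel, from 17.6 against 6.34 in quintile 1 to 8.78 against 3.11 in quintile 5 for the 5 enzymes together.

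Counted over single spots, Cyp7a1 had a median of 3 UMIs per spot and a highest value of 21 in WT, and a median of 1 and a highest value of 10 in C75S. At least 1 UMI was found in 89.2% of spots (87.9 to 90.5) in WT and 63.9% (61.8 to 65.9) in C75S. After every spot was thinned to 3000 UMIs, with 4 and 3 spots too shallow for it, these shares were 41.1% (39.1 to 43.2) and 17.9% (16.3 to 19.6). Nr0b2 had a UMI in 51.0% of spots in WT and 74.0% in C75S, and in 11.1% and 22.5% after thinning. For Nr1h4 the shares were 87.5% and 85.8%, and 33.1% and 31.8% after thinning. Since every spot held hepatocyte RNA, no spots were at hand that should lack these genes, and the share that stray RNA gives could not be measured.

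**Figure D5:**
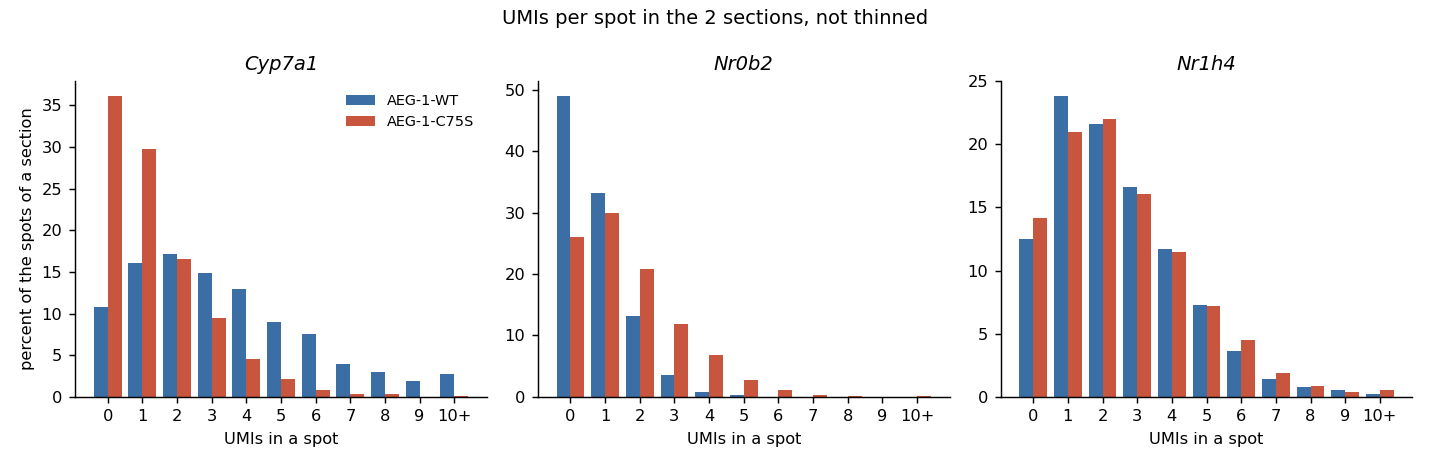
The bars give the percent of spots of a section with 0, 1, 2 and more UMIs of Cyp7a1, Nr0b2 and Nr1h4, for WT in blue and C75S in red, without thinning. Cyp7a1 had at least 1 UMI in 89.2% and 63.9% of spots, Nr0b2 in 51.0% and 74.0%, and the bars of Nr1h4 nearly coincide.

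Within a quintile, counts of Cyp7a1 varied between spots by more than counting error, with a remaining coefficient of variation of 21.8% in WT and 29.2% in C75S. Over 6887 genes the median of the same measure was 10.1% and 9.39%. Cyp27a1, with 10.7% and 11.4%, and Hsd3b7, with 12.4% and 7.95%, lay closer to these medians. In WT, Cyp7b1 had 27.6%, and Cyp8b1 had 36.1% on 180 UMIs. In C75S Cyp7b1 had 15.8%, and Cyp7a1 had the largest value of the 8 genes. The spread of Cyp8b1 there, on 302 UMIs, was below that of counting error and was set to 0%. No interval was made for this measure, so the order of the 8 genes and the change of Cyp8b1 between the sections are not read. The measure also holds any slope that remains within a quintile. Of the 6887 genes, 76.4% in WT and 89.5% in C75S varied less than Cyp7a1.

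The further enzymes of the pathway did not differ between the sections by the size used here. Of 15 listed, 14 were in the tables and 12 had at least 100 UMIs, and 0 of the 12 were lower or higher by 0.5, with a median of 0.10. Their ratios ran from -0.27 for Akr1d1, the 5β-reductase of the sterol ring, to 0.28 for Acox2, the branched-chain acyl-CoA oxidase of side chain shortening. Amacr, the racemase of the side chain, was at -0.21 and Abcd3, a peroxisomal transporter, at 0.20. Slc27a2, an acyl-CoA synthetase, was at 0.17, and Akr1c6, a hydroxysteroid dehydrogenase, at -0.06. Akr1c6 was also higher in central spots, with slopes of -1.45 in WT and -1.30 in C75S, while Cyp39a1, an oxysterol 7α-hydroxylase, was higher in portal spots, with 0.54 and 0.58. With 8.59% of all genes past this size, a count of 0 among 12 is near the background.

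Genes known to act on Cyp7a1 were mixed. Of 20 listed, 17 were in the tables and all 17 had enough UMIs. Jun, a transcription factor of the stress response, was higher in C75S with 1201 and 2920 UMIs (log2 ratio 1.30), and Onecut1, a hepatocyte transcription factor also called HNF6, with 1190 and 2239 UMIs (0.93). Dbp, a clock output factor that binds D-boxes, was lower with 9429 and 3206 UMIs (-1.54), and Nr1d2, the clock repressor REV-ERBβ, with 4734 and 3164 UMIs (-0.56). These were 2 higher and 2 lower of 17, where 2.8% of all genes were higher and 5.79% lower by at least 0.5. The median of the list was -0.10. Foxa2 was at 0.22 and Bhlhe40, another clock repressor, at -0.38. The time of day at which the livers were taken is not given in the sources used here, and a difference in it cannot be told apart from genotype with 1 animal of each. The part of Dbp, Nr1d2, Jun and Onecut1 in the level of Cyp7a1 was not tested.

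Among targets of FXR other than Nr0b2, 9 were listed, 8 were in the tables and 6 had enough UMIs. Slc51b, a subunit of the basolateral bile acid exporter, was higher in C75S on few counts, with 67 and 155 UMIs (log2 ratio 1.23, 0.81 to 1.67). Osgin1, an oxidative stress response gene, was higher with 7810 and 15000 UMIs (0.96). None was lower by 0.5, and the median of the list was 0.20. Over all genes 2.8% were higher and 5.79% lower by this size, so a count of 0 lower among 6 is near the background. Abcb11, the bile salt export pump, was at 0.25 (0.22 to 0.28). Sdc1, which encodes syndecan-1, was at -0.42, Abcb4, the phospholipid flippase of the canaliculus, at 0.15 and Pltp, the phospholipid transfer protein, at 0.05. Slc51a, the other subunit of the exporter, and Fgf15, an intestinal hormone that represses Cyp7a1, had 0 UMIs in both sections. A count of 3 UMIs would be 0.071 CPM in WT and 0.072 CPM in C75S. Absent RNA and probes that give no counts cannot be told apart here.

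Among the genes most like Cyp7a1 in their level over the 10 combinations of section and quintile, by Pearson's r of log2(CPM + 1) over 6886 genes with at least 1000 UMIs, were Slc29a1 (0.996), Fam25c (0.988), Hint2 (0.988) and Bst2 (0.987). The 10 points share 2 libraries and 1 axis, so r is given as a description. These 4 had smaller differences than Cyp7a1, with log2 ratios between sections of -0.14 for Bst2 to -0.39 for Fam25c. Of the other bile acid genes, Cyp7b1 had an r of 0.77, Nr1h4 of 0.67, Cyp27a1 of 0.62, Hsd3b7 of 0.40, Baat of 0.19 and Nr0b2 of -0.63.

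Markers of other cell types differed between the sections. Kupffer cell markers summed to 866 CPM in WT and 1159 in C75S, with log2 ratios from 0.10 (Clec4f) to 1.62 (Marco). Only Marco among them passed 0.5, and the next was Fabp5 at 0.46. Stellate cell markers summed to 551 and 703 CPM, with ratios from 0.07 (Colec11) to 0.42 (Ecm1). Portal fibroblast markers summed to 140 and 68.7 CPM, with ratios from -1.58 (Col1a1) to -0.68 (Col3a1). Cholangiocyte markers summed to 129 and 96.6 CPM, with ratios from -1.06 (Krt7) to -0.11 (Sox9). Red cell markers summed to 611 and 404 CPM, with ratios from -0.61 (Hba-a2) to -0.40 (Hbb-bt). Endothelial markers summed to 486 and 505 CPM, with ratios from -0.004 (Kdr) to 0.12 (Stab2). Hepatocyte markers summed to 181017 and 186270 CPM, with ratios from -0.07 (Alb) to 0.50 (Apoa1). Each of these markers that the tables hold had UMIs in both sections. Without the 10% of spots of each section richest in the markers of cells other than hepatocytes, the log2 ratio was -1.48 for Cyp7a1, 1.04 for Nr0b2 and 0.76 for Cyp8b1, as large as with them.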

How the data were processed

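Visium libraries of formalin-fixed liver sections were aligned and counted by the authors with Space Ranger 2.0.1 and the mm10 reference, and Seurat 4.3.0 is named in the submitters' processing notes. The deposited tables hold raw UMI counts of 19465 genes per spot, without normalization. Spots with more than 50000 UMIs, fewer than 100 genes or more than 7000 genes were left out, 7 in WT and 4 in C75S. Where a symbol was repeated (11 cases), its first row was read. Spot coordinates were not used here.

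UMIs were summed over spots and scaled to CPM with pandas 2.3.3, numpy 2.4.6 and scipy 1.17.1 (python 3.11.15). Only the TMM factors used edgeR 4.0.16, under R 4.3.3. Exact Poisson and binomial intervals cover counting error only. So do the Wald intervals of differences between slopes and of log2 ratios against other enzymes. A difference of 0.5 on the log2 scale over at least 100 UMIs was counted. Code was checked on simulated counts. Genes named were the 8 above, those of each list past this size and its 3 highest and 3 lowest ratios, and the 5 most like Cyp7a1, except 1 that is not reported here. Slc51a and Fgf15 were named for their count of 0 and Cyp39a1 for its slope, after these were seen. The genes and lists were chosen with earlier results of these data known.

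With 1 section per genotype, precision is limited by the number of animals and not by depth, and no test was made. Alternatives were other spot filters, thinning, equal weight per spot, other scalings, spots matched on depth, another lobule axis, tertiles and deciles, other denominators and other sizes of difference.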

Additional observations from a re-analysis of the deposited data

Results flagged for a closer look

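Baat had a slope along the lobule axis of 0.0798 (-0.0016 to 0.161) in C75S and of -0.0835 (-0.167 to -0.0005) in WT, opposite in sign. The C75S interval included 0, and that of WT ended just below it. The median slope over all genes tested was -0.10 in C75S and -0.13 in WT, and both slopes of Baat lay above these medians. The difference between the slopes was not tested because each genotype had 1 section.

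Nr0b2 had a slope of -0.44 in C75S and of 0.01 in WT, also opposite in sign and not tested, and the interval of the WT slope (-0.21 to 0.23) included 0.

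The spots left out for more than 50000 UMIs also held the 8 genes, with 485 UMIs in 7 spots of WT and 285 UMIs in 4 spots of C75S. Cyp7a1 had 38 UMIs (102 CPM) and 3 UMIs (13.7 CPM) there, lower in C75S as in the spots kept.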

How the results depend on the processing

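No paired analysis was possible because each genotype had 1 section, and leaving out a section leaves nothing to compare. The whole-section log2 ratio of Cyp7a1 lay between -1.48 and -1.39 under 8 alternatives and that against the other 5 enzymes between -1.55 and -1.46 under 11. No called ratio reversed. For the other 7 genes, 243 of 280 values stayed within the counting interval of the main value, and 37 fell outside it. The intervals of the alternative values themselves were not used for this count. No value past 0.5 changed sign. Values nearer 0 did change sign, for Baat, Cyp7b1, Cyp8b1, Nr0b2 and Nr1h4. The shift between the sections was -0.05 at the median gene, -0.04 without the 20 most abundant genes and -0.06 by TMM, and ratios taken relative to it were higher by that size, which turned the small negative ratios of Baat and Nr1h4 positive.

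Slopes depended more on the steps. The slope of Cyp7a1 was -1.46 (-1.98 to -0.96) in C75S after thinning, an interval that included the -1.77 without thinning. It was -1.66 in WT on the axis of Hal, Gls2 and Hsd17b13 over Cyp1a2 and Oat. In tertiles it was -1.46 in WT and -1.50 in C75S, and in deciles -2.15 and -2.33. The portal ratio between sections was -1.07 (-1.60 to -0.55) after thinning and -1.60 (-1.98 to -1.23) in deciles. Both intervals included the -1.35 of quintile 5 without thinning. Cyp7a1 against the other 5 enzymes had slopes of -1.01 in WT and -1.03 in C75S. After thinning the slope in C75S was -0.74 (-1.23 to -0.24), an interval that included -1.03. It was -0.86 in WT on the other axis. In WT and C75S it was -1.21 and -1.27 without Cyp27a1, and -0.74 and -0.76 without Baat. With the further synthesis enzymes it was -1.43 and -1.41. The causes of these shifts were not tested. By construction, fewer and wider steps average over more of the axis.

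Of the further synthesis enzymes, 1 was lower with a minimum of 50 UMIs (Cyp46a1, 43 and 16 UMIs). Of the genes acting on Cyp7a1, 1 was higher and 1 lower at a log2 ratio of 1. Of the FXR targets, 1 was higher with a minimum of 500 UMIs, 1 higher at a ratio of 1 and 1 lower at 0.3. The slope of Cyp8b1 in WT passed 0.5 in size under 3 alternatives (to -1.08), that of Nr0b2 in C75S under 2 (to -0.60) and that of Nr1h4 in WT under 1 (-0.53). The central ratio of Cyp8b1 was 0.27 (-0.47 to 1.01) in deciles, below 0.5. The portal ratio of Cyp8b1, which rests on the fewest UMIs, changed sign under 4 and passed 0.5 under 1 (0.64).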
